A study of Sus scrofa with 4 samples.

Results

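The shortest gene models of the Tibetan pig, those of at most 250 bases, were described across 4 tissues. Models of this length were kept unless they lay on scaffold46278, scaffold8242 or scaffold31207, which removed 3 models. This left 425 of the 18367 models with reads, of 153 to 250 bases. The samples were heart, liver, lung and kidney of Sus scrofa of the Tibetan breed, untreated as far as the labels say, with 1 RNA sequencing library per tissue. The labels used here name neither the age and sex of the animals nor whether the tissues came from 1 pig. Library totals ran from 4090775 reads on gene models in liver to 14062622 in heart. The files give models by identifier and pair none with a gene name. Tissue markers were therefore not checked, and no gene function is given for any model.

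A model this short can be a whole gene, since several well-studied proteins are very small. Examples in animals are phospholamban, which controls the calcium pump of heart muscle, the metallothioneins, which bind metals, and small subunits of the ribosome and of the respiratory chain. It can also be a piece of a longer gene, because a predicted model stops where its scaffold ends. RPKM divides the reads on a model by its length and by the library total, so each single read weighs more on a short model than on a long one.

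The short models differed from the others in features that their choice by length did not fix. Lengths that are a multiple of 3, as a complete coding sequence has, made up 294 of the 425, or 69.2%, against 89.9% of all other models. The models also often stood alone. On 159 of them, or 37.4%, no other model of the same scaffold had a read in the tables, against 7.10% of the others. The median number of models on the scaffold was 4 for short models and 12 for the rest. Both features varied together: of the 131 short models of another length, 61.8% were alone on their scaffold, against 26.5% of the 294 whose length is a multiple of 3. The 425 models were spread over 401 scaffolds, 382 of which held only 1 of them.

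**Figure D1:**
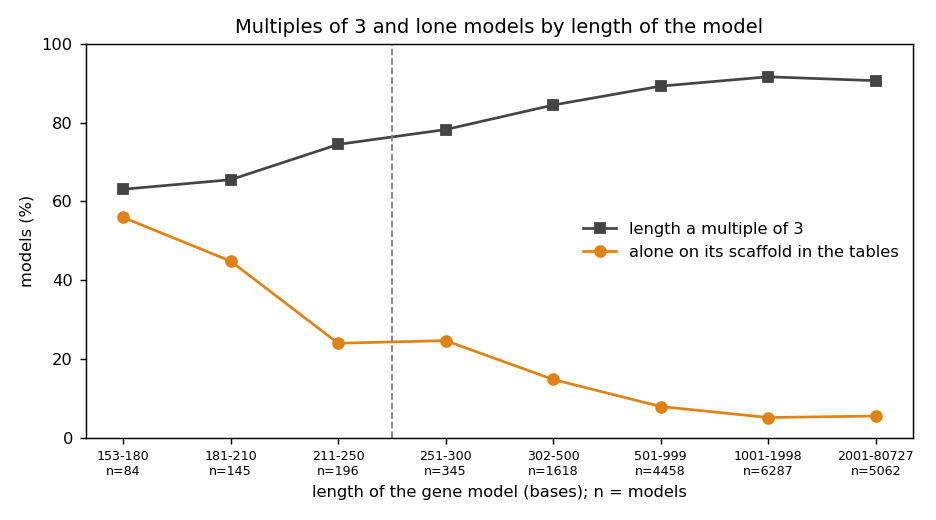
Percent of models whose length is a multiple of 3 (squares) and percent alone on their scaffold (circles), by length of the model in bases; each point is 1 length range, n is the number of models in it, and the dashed line marks the 250-base limit. From 153 to 180 bases 63.1% were multiples of 3 and 56.0% were alone, against 90.7% and 5.47% at 2001 bases or more.

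Both features followed length beyond the limit as well. Multiples of 3 made up 63.1% of models of 153 to 180 bases, 65.5% at 181 to 210 and 74.5% at 211 to 250, then 78.3% at 251 to 300 and 84.5% at 302 to 500. Lone models went from 56.0% through 44.8% and 24.0% to 24.6% and 14.8% over the same ranges. At the limit itself, the 2 models of 250 bases had 0 RPKM in heart and liver and at most 5.10 in kidney. The 3 models of 251 bases reached 19.0 RPKM in heart and 51.3 in lung. In the other direction, the 13 models of 249 bases reached 431 RPKM in heart and 402 in lung, and the 10 of 252 bases 12.1 and 78.4.

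Few reads lay behind most of the short models. On a model of 209 bases, their median length, a single heart read stood for 0.340 RPKM and a single liver read for 1.17, with lung at 0.540 and kidney at 0.872. On a model of 1278 bases, the median of all models, a liver read stood for 0.191 RPKM. The level of 1 RPKM, often used to call a gene detected, was therefore under 1 read on a typical short model in liver (0.855) and 2.94 reads in heart. The median short model had 11 heart reads, 6 lung reads, 5 kidney reads and 1 liver read.

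By RPKM the short models looked detected almost as often as other models, and by reads they did not. At 1 RPKM or more, 269 of the 425 were detected in heart, or 63.3%, against 67.8% of all models. In lung there were 291, or 68.5%, against 76.3%, in kidney 276, or 64.9%, against 71.9%, and in liver 251, or 59.1%, against 62.4%. At 10 reads or more, 224 remained in heart, or 52.7%, against 71.6% of all models. In lung 188 had 10 reads, or 44.2%, against 75.7%, in kidney 171, or 40.2%, against 69.0%, and in liver 117, or 27.5%, against 56.8%. Since 10 reads is a higher RPKM on a shorter model, the second set of shares is lower for shorter models by construction.

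**Figure D2:**
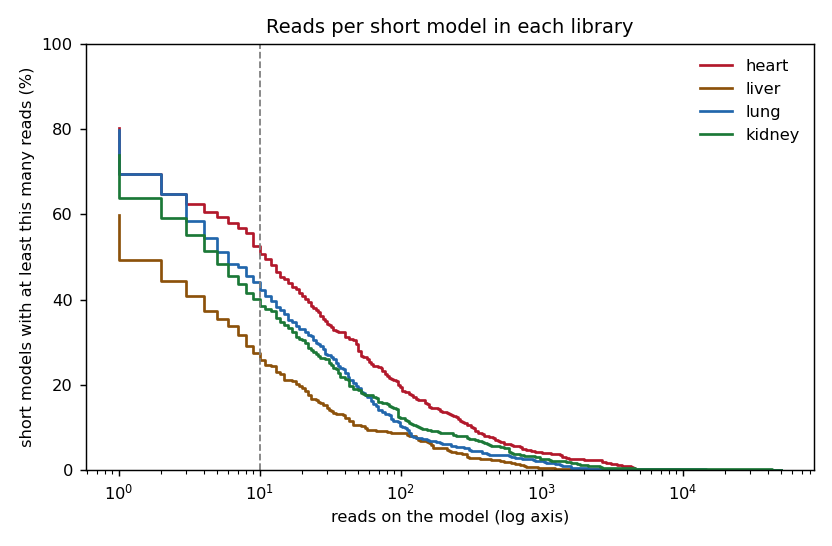
Percent of the 425 short models with at least the number of reads on the horizontal log axis, 1 line per library; the dashed line marks 10 reads. At 10 reads the heart line stands highest, at 52.7%, followed by lung (44.2%) and kidney (40.2%), and the liver line lowest, at 27.5%.

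Reads in all 4 libraries were found for 211 short models, or 49.6%, and for 73.7% of the other models. Another 70 had reads in 3 libraries and 50 in 2. Reads in a single library were found for 94 short models, or 22.1%, against 8.74% of all models. Almost all of these rested on very little: 44 had exactly 1 read, and the median was 2. Of the 94, 39 were in lung, 34 in heart, 17 in kidney and 4 in liver. None of the lung ones exceeded 8 reads, while 8 heart ones had 10 or more. In all, 126 short models, or 29.6%, had fewer than 10 reads summed over the libraries, against 13.5% of the other models.

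Of the single-library models, 4 had more than 50 reads, and those of highest RPKM in heart and in kidney are given first. evm.model.scaffold19809.1, of 234 bases, had 1570 reads or 477 RPKM in heart (95% interval 454 to 501), and 0 reads in liver, lung and kidney. Against a floor of 3 counts per library, heart was at least 329-fold higher than lung, 204-fold higher than kidney and 152-fold higher than liver. evm.model.scaffold35037.1, of 157 bases, had 125 reads or 145 RPKM in kidney (121 to 173) and 0 reads elsewhere, so kidney was at least 107-fold higher than heart, 67.2-fold higher than lung and 31.1-fold higher than liver. The limits differ with the depth of the library that had no read and do not rank the tissues. Both models were alone on their scaffold. The other two, chosen after their values were seen, were found in heart: evm.model.scaffold42532.37 with 134 reads (51.5 RPKM) and evm.model.scaffold40094.3 with 51 reads (17.4 RPKM).

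High levels were also common among the short models, so their levels spread to both ends. Median RPKM was 4.12 in heart, 4.50 in kidney, 3.32 in lung and 1.46 in liver, against 5.54, 7.94, 10.1 and 3.21 for the other models. Yet 53 of the 425, or 12.5%, reached 100 RPKM in kidney, against 7.95% of all models. In heart 45 did, or 10.6%, against 5.75%, in liver 37, or 8.71%, against 5.01%, and in lung 29, or 6.82%, against 6.11%. Adding 100 bases to every length lowers the RPKM of short models most. The shares at 100 RPKM were then 9.18% against 7.21% in kidney, 7.53% against 5.11% in heart, 7.29% against 4.49% in liver and 5.41% against 5.33% in lung.

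Taken as a share of the library, the short models held more reads than bases. They made up 0.278% of the summed length of all models. Their share of the reads was highest in kidney, at 1.58% (1.57 to 1.59). It was 0.569% in heart (0.565 to 0.573), 0.486% in lung (0.481 to 0.490) and 0.476% in liver (0.469 to 0.483). Single models carried much of this. In kidney evm.model.scaffold42338.8 alone held 51.8% of the reads on short models, and without it the kidney share was 0.761%. In lung evm.model.scaffold45520.21 held 34.8%, and without it the share was 0.317%. The first member took 22.4% in liver and 12.1% in heart, where 10 models were needed for 50% of the reads on short models.

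The short models that were high everywhere were a small set. At 10 RPKM or more in all 4 libraries there were 70, or 16.5%, against 22.1% of all models. At 100 RPKM or more in all 4 there were 15, or 3.53%, against 1.61%. All 15 had a length that is a multiple of 3, and 2 were alone on their scaffold. Highest of these by its lowest library was evm.model.scaffold4961.5, of 180 bases. It had 1882 RPKM in heart (4765 reads), 1726 in liver (1271), 1380 in lung (2199) and 2752 in kidney (2718). Kidney was 1.99-fold above lung (1.88 to 2.11), the widest gap between its libraries. evm.model.scaffold6540.12, of 213 bases, had 907 RPKM in heart (2718 reads), 895 in liver (780), 864 in lung (1629) and 1595 in kidney (1864). Its heart, liver and lung values differed by less than their counting error, with heart 1.05-fold above lung (0.987 to 1.12), and kidney was 1.76-fold above heart (1.66 to 1.87).

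Most of the 15 were less even than these. The ratio of the highest to the lowest library ran from 1.85 to 9.26 with a median of 4.26, and 3 of the 15 stayed within 2-fold. Kidney was the highest library for 8 of them, heart and lung for 3 each and liver for 1. Over the 70 short models at 10 RPKM or more everywhere the median ratio was 3.96, against 3.08 for the 4058 such models in the whole series, and 62.9% stayed within 5-fold, against 75.2%. In liver, 10 RPKM is 8.55 reads on a model of 209 bases and 52.3 on one of 1278 bases. Counting error widens such a ratio more at few reads, and its part in this gap was not tested.

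Short models were highest in heart more often than other models, and in lung less often. Among the 299 short models with 10 or more reads in sum, 99, or 33.1%, had their highest RPKM in heart, against 18.1% of all such models. Kidney was highest for 98, or 32.8%, against 30.0%, lung for 73, or 24.4%, against 44.8%, and liver for 29, or 9.70%, against 7.11%. At 50 or more reads in sum the heart share was 34.8% for short models and 17.6% for the others, and the lung share 24.8% and 45.0%. Kidney, at 33.8% against 30.5%, and liver, at 6.67% against 6.88%, were near the other models.

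**Figure D3:**
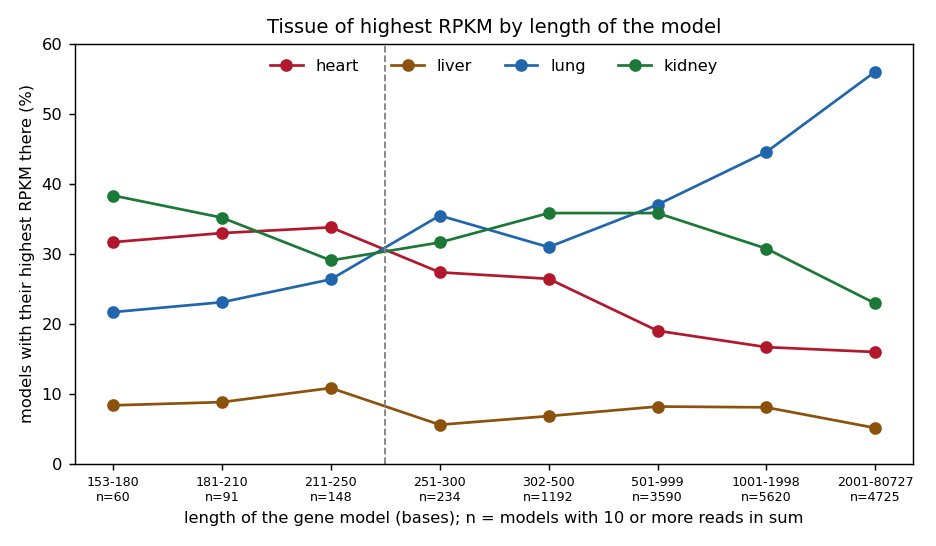
Percent of models with their highest RPKM in each tissue, by length of the model in bases; each point is 1 length range, n counts its models with 10 or more reads summed over the 4 libraries, and the dashed line marks the 250-base limit. Heart stands at 31.7% in the shortest range and 16.0% in the longest, and lung at 21.7% and 56.0%.

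The pattern did not begin at 250 bases. Heart was highest for 31.7% of models of 153 to 180 bases, 33.0% at 181 to 210 and 33.8% at 211 to 250, so it varied little among the short models. Beyond them it was 27.4% at 251 to 300, 26.4% at 302 to 500 and 19.0% at 501 to 999. The lung share was 21.7% in the first range, 26.4% at 211 to 250 and 56.0% at 2001 bases or more. Lone models and lengths off the multiple of 3 moved with length too, and their part in the pattern was not tested beyond the sub-groups that follow. Heart was highest for 31.3% of the short models whose length is a multiple of 3 and 37.4% of the rest. Lung was highest for 28.8% and 14.3%, in the same order. Heart was highest for 30.6% of the lone short models and 34.6% of those with another model on their scaffold. For lung these shares were 21.6% and 26.1%, and for liver 16.2% and 5.85%. Among other models alone on their scaffold, which are longer, heart was highest for 24.2% and lung for 42.1%.

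The order of tissues depended on the scaling, and the gap to other models in heart and lung did not close under it. Median-ratio scaling, which sets the median model of 10247 detected everywhere to the same level, divides lung by 1.38 and kidney by 1.27, and raises liver and heart by dividing by 0.614 and 0.927. Heart was then highest for 38.5% of the 299 short models, against 25.7% of all models, and lung for 18.4%, against 33.0%. Liver was highest for 22.4%, against 21.4%, and kidney for 20.7%, against 19.9%.

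Comparing libraries 2 at a time gave the same picture for heart and lung. On the log2(RPKM + 1) scale the median short model of the 299 was 0.15 higher in heart than in lung, whereas the median of the other models was -0.62. After median-ratio scaling these were 0.66 and -0.16. By a 4-fold minimum on the RPKM + 1 scale, 72 short models were higher in heart than in lung, or 16.9%, against 5.13% of all models. Adding 1 understates folds of low models. The reverse held for 52, or 12.2%, against 13.4%. Under median-ratio scaling the first share was 18.8%, against 7.01% of all models, and the second 7.76%, against 8.43%.

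For kidney and lung, 74 short models were at least 4-fold higher in kidney, or 17.4%, against 7.65% of all models, and 36 were higher in lung, or 8.47%, against 10.6%. For liver and lung, 50 were higher in liver, or 11.8%, against 4.85%, and 72 higher in lung, or 16.9%, against 22.8%. That last split turned with the scaling, to 19.1% higher in liver, against 8.54% of all models, and 9.65% higher in lung, against 11.7%.

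The 3 remaining pairs were those without lung. Between heart and kidney, 49 short models were at least 4-fold higher in heart, or 11.5%, against 5.24% of all models, and 54 higher in kidney, or 12.7%, against 10.5%. Under median-ratio scaling these were 13.6%, against 6.62%, and 8.94%, against 7.98%, so which side held more depended on the scaling. Between heart and liver, 75 were higher in heart, or 17.6%, against 11.8%, and 34 higher in liver, or 8%, against 5.87%. Between liver and kidney, 64 were higher in kidney, or 15.1%, against 12.0%, and 18 higher in liver, or 4.24%, against 2.84%. Scaling brought these to 9.18%, against 6.13%, and 5.65%, against 4.68%. Across the 299 models, Spearman correlations between libraries ran from 0.39 for heart and lung to 0.71 for liver and kidney, and across 15511 other models from 0.63 to 0.77. The points are models, not replicates, and low counts lower a correlation.

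Enrichment in a tissue required 10 RPKM in its library, with an RPKM + 1 no less than 5 times the value in any other. With 1 library per tissue no test is possible, so each count stands beside the share of all models that met the rule. Heart had 22 enriched short models, or 5.18%, against 2.08% of all models. Lung had 13, or 3.06%, against 3.67%, kidney 11, or 2.59%, against 2.00%, and liver 8, or 1.88%, against 1.56%. By length, the heart-enriched share was 3.57% at 153 to 180 bases, 3.45% at 181 to 210 and 7.14% at 211 to 250. Beyond the limit it was 5.51% at 251 to 300 and 3.03% at 302 to 500, so it was not particular to the short models. The mirror rule called a model depleted at 10 RPKM or more in the 3 other libraries, each at least 5 times higher by RPKM + 1. It gave 14 short models in lung, or 3.29%, against 0.376% of all models, 5 in heart, or 1.18%, against 0.588%, 1 in liver, or 0.235%, against 1.12%, and 0 in kidney, against 0.0762%.

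**Figure D4:**
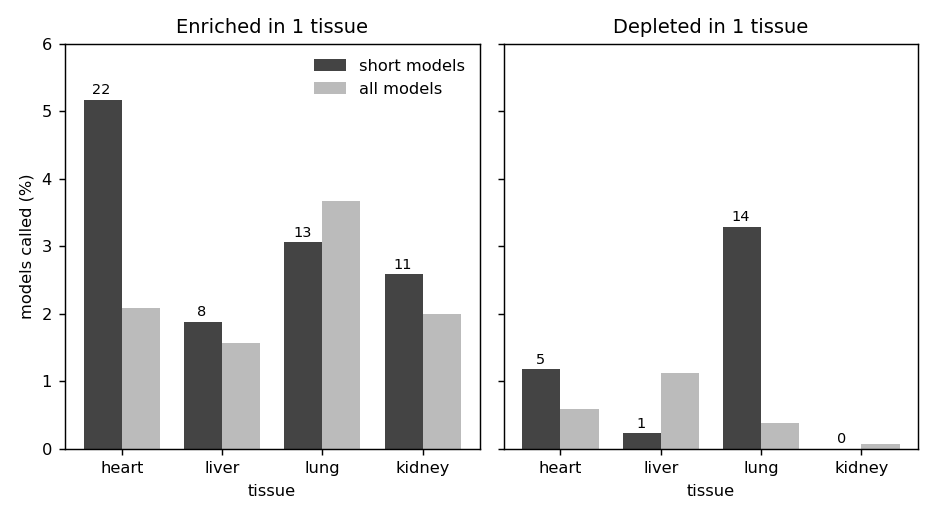
Percent of the 425 short models (dark bars, with the number of models above) and of all 18367 models (light bars) called enriched (left) or depleted (right) in each tissue. The dark bar exceeds the light one most in heart for enriched models, 5.18% against 2.08%, and in lung for depleted ones, 3.29% against 0.376%.

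The 22 heart-enriched short models ranged from 16.3 to 1256 RPKM in heart, with 49 to 3762 reads. Highest was evm.model.scaffold45679.7, of 213 bases, with 3762 reads or 1256 RPKM in heart (1216 to 1297), 2 reads or 1.06 RPKM in lung (0.128 to 3.83) and 0 reads in liver and kidney. Heart was 1184-fold above lung (328 to 9782), and at least 489-fold above kidney and 365-fold above liver by the floor of 3 counts. The second was evm.model.scaffold19809.1, found in heart alone and described above. Of the 22, 3 had 0 reads in all other libraries, 11 had none in liver, 6 none in lung and 5 none in kidney. For 15 of the 22 the counting interval of the ratio to the next library lay wholly above 5. Lengths were multiples of 3 in 15, and 8 were alone on their scaffold.

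Liver enrichment rested on fewer reads than heart enrichment, with a median of 75 liver reads against 249.5 heart reads. For lung enrichment the median was 63 lung reads. The 8 liver-enriched models ranged from 10.8 to 708 RPKM, and the least covered had 10 reads. evm.model.scaffold33894.1, of 249 bases, had 721 liver reads or 708 RPKM (657 to 761), against 4 reads in lung (1.81 RPKM), 2 in kidney (1.46) and 1 in heart (0.286). Liver was 390-fold above lung (152 to 1436). evm.model.scaffold46357.1, of 174 bases, had 376 liver reads or 528 RPKM (476 to 584), 3 reads in lung (1.95 RPKM), 1 in heart (0.409) and 0 in kidney, a 271-fold gap to lung (92.1 to 1321). Both were alone on their scaffold, as were 5 of the 8. In 5 of the 8 the interval of the ratio lay wholly above 5.

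The lung group was led by 1 model far above the rest. evm.model.scaffold45520.21, of 240 bases, had 14945 lung reads or 7034 RPKM (6921 to 7148), rank 4 of all models in that library by RPKM and 43 by reads. It had 6 reads in liver (6.11 RPKM), 5 in kidney (3.80) and 0 in heart. Lung was 1151-fold above liver (529 to 3137), 1852-fold above kidney (794 to 5706) and at least 7913-fold above heart. The second, evm.model.scaffold42077.7, of 243 bases, was present everywhere, at 654 RPKM in lung (1407 reads), 111 in heart (381), 87.8 in kidney (117) and 22.1 in liver (22). Its lung level was 5.87-fold that of heart (5.23 to 6.59). Under median-ratio scaling the ratio was 3.91 on the RPKM + 1 scale, and it was no longer called.

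The remaining lung-enriched short models were lower. The median over all 13 was 32.3 RPKM, the lowest stood at 10.2, and in only 4 of the 13 did the interval of the ratio lie wholly above 5. Under median-ratio scaling 8 of the 13 remained, and no other model joined them.

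Kidney held the most abundant short model of the series. evm.model.scaffold42338.8, of 219 bases, had 44870 kidney reads, 663 in lung, 242 in heart and 159 in liver. These are 37344 RPKM in kidney (36999 to 37691), 342 in lung, 78.6 in heart and 177 in liver, and kidney was 109-fold above lung (101 to 118). evm.model.scaffold17491.3, of 210 bases, had 2580 kidney reads or 2239 RPKM (2154 to 2327), 56 reads in liver (65.2 RPKM), 22 in lung (11.8) and 5 in heart (1.69). Kidney was 34.4-fold above liver (26.4 to 45.6), the next tissue, and 189-fold above lung (125 to 302). Of the 11 kidney-enriched models, 6 were alone on their scaffold and 2 had 0 reads in the other libraries. In 9 of the 11 the interval of the ratio lay wholly above 5.

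**Figure D5:**
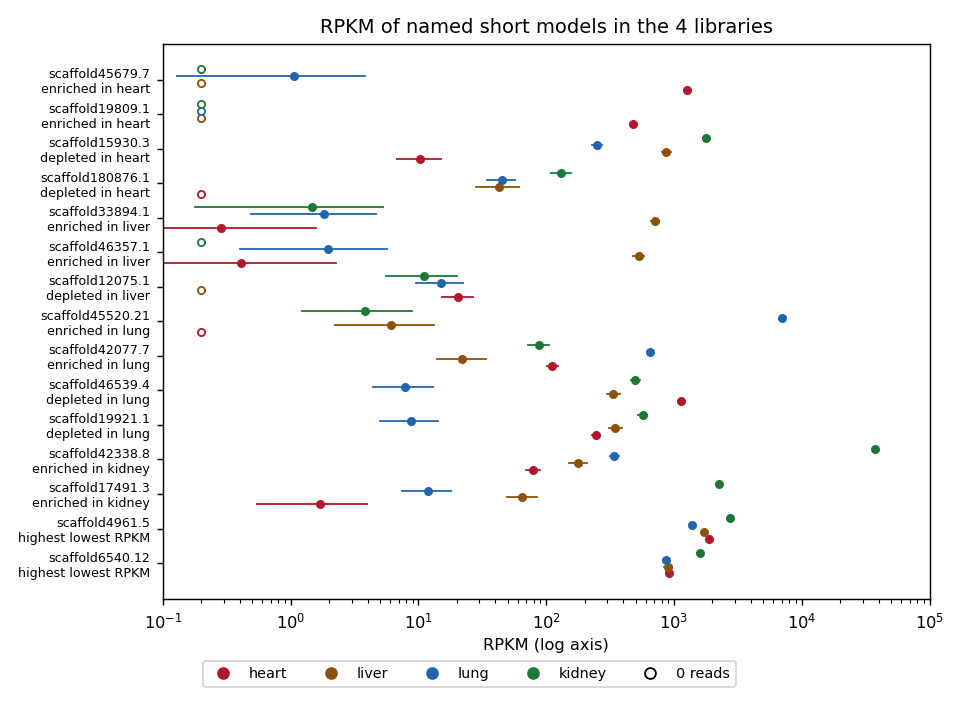
RPKM on a log axis of the short models named as enriched, depleted or high in all libraries, 1 row per model and 1 point per library, with lines for the 95% Poisson interval of the count; open points stand for 0 reads and have no place on the axis, and lines that reach the left edge go on beyond it. Enriched models have 1 point apart to the right, depleted ones 1 point apart to the left, and in scaffold4961.5 and scaffold6540.12 all 4 points stand at 864 RPKM or more.

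Of the 69 lung-depleted models of the series 14 were short, while short models are 2.31% of all models. Heart was the highest library for 8 of the 14, kidney for 4 and liver for 2. Their median lung level was 2.34 RPKM, against 220 in heart, 118 in kidney and 33.8 in liver, and 3 of them had 0 lung reads. evm.model.scaffold46539.4, of 216 bases, had 1141 RPKM in heart (3467 reads), 335 in liver (296), 498 in kidney (590) and 7.84 in lung (15). Lung was low against every tissue: liver, the next, was 42.7-fold above it (25.5 to 77.3) and heart 146-fold (88.1 to 260). evm.model.scaffold19921.1, of 207 bases and alone on its scaffold, had 245 RPKM in heart (712 reads), 347 in liver (294), 568 in kidney (645) and 8.73 in lung (16). Heart was 28.0-fold above lung there (17.1 to 49.3).

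The share of lung-depleted short models stayed above that of all models under the 3 settings that follow, by a smaller factor than as deposited. With at least 20 reads in each of the 3 other libraries, 9 of the 425 were called, or 2.12%, against 0.348% of all models. Under median-ratio scaling there were 20, or 4.71%, against 0.838%, with 13 of the 14 among them. Counts thinned to the liver total gave 13, or 3.06%, against 0.387%, and 12 of these were among the 14. The interval of the ratio lay wholly above 5 for 6 of the 14. The share of lung-depleted models was 5.95% at 153 to 180 bases, 2.76% at 181 to 210, 2.55% at 211 to 250, 1.74% at 251 to 300 and 0.0395% at 2001 or more.

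Depletion in the other tissues was rare. In heart, evm.model.scaffold15930.3, of 186 bases, had 27 reads or 10.3 RPKM (6.80 to 15.0), against 1804 reads in kidney (1768 RPKM), 664 in liver (873) and 412 in lung (250.2). Lung was the lowest of these and stood 24.2-fold above heart (16.4 to 37.2). evm.model.scaffold180876.1, of 161 bases, had 0 heart reads, 116 in kidney (131 RPKM), 64 in lung (44.9) and 28 in liver (42.5), so that liver was at least 32.1-fold above heart. In liver the only depleted model, evm.model.scaffold12075.1 of 180 bases, was thinly covered, with 52 reads in heart (20.5 RPKM), 24 in lung (15.1), 11 in kidney (11.1) and 0 in liver. Kidney was at least 2.73-fold above liver by the floor of 3 counts, under the 5-fold minimum that the RPKM + 1 scale let it pass. Median-ratio scaling ended this call because it took kidney under 10 RPKM, while the ratio on the RPKM + 1 scale was still 9.79.

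Models high in 2 tissues had 10 RPKM or more in both and an RPKM + 1 in the lower of the 2 at least 5 times that of either remaining library. Liver and kidney shared 10 such short models, or 2.35%, against 1.26% of all models. Kidney was the higher of the 2 in 8 of the 10. First by the lower value was evm.model.scaffold202417.1, of 188 bases and alone on its scaffold, with 4365 reads in liver, 4635 in kidney, 29 in lung and 5 in heart. These are 5676, 4494, 17.4 and 1.89 RPKM, and liver was 1.26-fold above kidney (1.21 to 1.32). It also met the rule for depletion in heart. evm.model.scaffold35358.4, of 170 bases, had 881 RPKM in liver (613 reads), 1733 in kidney (1616), 23.3 in lung (35) and 4.18 in heart (10). Neither length is a multiple of 3.

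The other pairs of tissues shared few short models. Lung and kidney shared 4, or 0.941%, against 0.648% of all models. They included evm.model.scaffold16312.14 at 129 RPKM in lung (250 reads) and 422 in kidney (507), with 1 read each in heart and liver, and evm.model.scaffold2086.1 at 160 in lung (311 reads) and 59.1 in kidney (71). Heart and kidney shared 2, or 0.471%, against 0.152%. evm.model.scaffold41887.60, of 228 bases, had 9646 heart reads or 3008 RPKM, the highest heart level of any short model, with 976 reads in kidney (780 RPKM), 131 in liver (140) and 49 in lung (24.3). It was also among the lung-depleted models. The second, evm.model.scaffold13407.25, was low, at 29.0 RPKM in heart (100 reads) and 10.4 in kidney (14).

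Heart and lung shared 2 as well, against 0.604% of all models. These were evm.model.scaffold39487.10, at 28.4 RPKM in heart (97 reads) and 106 in lung (229), and evm.model.scaffold18534.5, at 209 RPKM in heart (477 reads) and 24.4 in lung (35). The second also met the rule for heart alone. Liver and lung shared 2, against 0.256%: evm.model.scaffold44804.1, at 196 RPKM in liver (166 reads) and 49.1 in lung (90), and evm.model.scaffold46068.6, at 20.6 in liver (21 reads) and 43.5 in lung (96). Heart and liver shared 0, against 0.0544%.

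Several of these pair calls depended on the scaling. Under median-ratio scaling 16 of the 20 short models high in 2 tissues kept a call of that kind and 5 others gained one, 4.94% against 2.89% of all models. All 10 shared by liver and kidney remained. Both of heart and kidney were lost, with ratios on the RPKM + 1 scale of 2.69 for evm.model.scaffold41887.60 and 3.51 for evm.model.scaffold13407.25. evm.model.scaffold2086.1 of lung and kidney, at 4.41, and evm.model.scaffold18534.5 of heart and lung were lost too. Thinning ended the calls of both models shared by heart and lung. In all, 85 of the 425 short models, or 20%, met at least 1 of these rules, against 13.5% of all models, and the 340 that met none included all 126 with fewer than 10 reads in sum. Those 126 could hardly meet a rule, since each rule asks for 10 RPKM. On 209 bases that is 8.55 reads in liver, 11.5 in kidney and more in lung and heart.

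Model numbers run along a scaffold, so the models with the number before or after can be read as neighbours. Of the 22 heart-enriched short models, 13 had such a neighbour with reads, and in 3 of these the neighbour was heart-enriched too. Among the 3 are evm.model.scaffold20585.1 and evm.model.scaffold20585.2, which are neighbours of each other, so that pair enters from both sides. For all heart-enriched models, counted the same way, a neighbour was heart-enriched too for 36 of 312, or 11.5%. The counts were 2 of 5 for kidney, 1 of 7 for lung and 0 of 3 for liver, where all kidney-enriched models gave 14.6%, all lung-enriched ones 14.6% and all liver-enriched ones 21.9%. These counts are too small to set apart from the series.

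Single neighbours showed both like and unlike profiles. The model after evm.model.scaffold15930.3, of 462 bases, was alike in part. It was also low in heart, at 0.154 RPKM, with 444 in liver and 499 in kidney. In lung it stood at 8.31 RPKM, where the short model had 250.2, so it did not meet the rule for depletion in heart. The model after evm.model.scaffold18534.5, of 1494 bases, stood at 257 RPKM in heart and 46.7 in lung, where the short model had 209 and 24.4, and at 13.2 in kidney and 7.85 in liver, where the short model had 3.38 and 3.02. Heart was highest and lung next in both, and the lung, kidney and liver levels were higher in the longer model. By contrast, the model after evm.model.scaffold45520.21, of 17055 bases, was as high in heart (445 RPKM) as in lung (405), where the short model had 0 heart reads. The models on both sides of evm.model.scaffold42338.8 were not kidney-enriched, at 44.3 and 0 RPKM in kidney. For evm.model.scaffold45679.7 the model before it stood at 63.8 RPKM in heart and 103 in kidney.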

How the data were processed

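Libraries were made with an Illumina TruSeq kit from RNA isolated with Trizol, per the labels' protocols. The submitters' processing notes name TopHat. Not given in the sources used here were the read counter, strand use, handling of reads with several matches, genome build and annotation, so near-identical or overlapping models could share or lose reads. Per the file headers, the authors deposited whole read counts per model, the model length, the library total and an RPKM per model. Counts summed to each total, and RPKM was recomputed within a relative tolerance of 1e-09. Models missing from a file were set to 0, since no file lists a 0. Of 18367 identifiers, 0 matched the 2 tables of pig genes.

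The members and rules were chosen with earlier results of these data known. Members named are the 2 of highest RPKM per enriched group and, per depleted group, the 2 whose lowest RPKM among the other libraries was highest. Per pair of tissues they are the 2 of highest lower value. Also named are the 2 with the highest lowest RPKM and the 2 of highest RPKM with reads in 1 library. Neighbouring models and the models of most reads per library were added after their values were seen. Intervals are exact at 95%, Poisson for a count and Clopper-Pearson for a share or a ratio of 2 counts. The floor for 0 reads is 3 counts per library. Both take in only the error of counting, as PCR copies of a molecule cannot be recognised here. Replicate error is unknown with a single library of each tissue, and no test was run. The rules were tested on simulated Poisson counts drawn from 1 common profile with known folds put in. Such counts hold no variation between animals or libraries, so they do not give the error of a call here. Alternatives were the length limit, the left-out scaffolds, scaling, thinning, fold, pseudocount, read and RPKM minimum, and 100 bases added to every length. Calculations used scipy 1.17.1 with numpy 2.4.6 and pandas 2.3.3 under Python 3.11.15, and plots matplotlib 3.10.9.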

Additional observations from a re-analysis of the deposited data

How the results depend on the processing

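No paired analysis was possible because the design holds a single library of each tissue, and none could be left out. Of 220 shares under alternatives, 169 stayed within 1.5 times, among them all those with thinned counts, a pseudocount of 0.1 or the 3 left-out scaffolds. Part of this count could hardly differ. The left-out scaffolds held only 3 short models, and a share of 0 that stayed 0, as for kidney depletion in most settings, was counted as unmoved. Of 54 log2 ratios of named models, 46 moved by less than their counting error, 8 moved more and 0 reversed. None could reverse. Models named for a call stood at 5-fold or more, beyond the reach of scaling factors from 0.614 to 1.38 or of a smaller pseudocount. For the 2 named as high everywhere, scaling divides lung, their lowest library, by more than kidney, their highest. Where the lower library had 0 reads the counting error has no upper limit, so such a ratio could not count as moving more. This held for evm.model.scaffold180876.1, evm.model.scaffold12075.1, evm.model.scaffold35037.1 and evm.model.scaffold19809.1. The last entered both as heart-enriched and as found in 1 library. Among these, the ratio of evm.model.scaffold12075.1 went from 3.60 to 6.81 with the pseudocount of 0.1. Pairs of tissues, the 100 RPKM level and shares without the top model were added after seeing the data. Liver, the shallowest library, limits low values most. Shares below are percents of the short models unless reads are named, and the causes were not tested unless they follow from the setting itself.

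Median-ratio scaling gave 3.06 enriched in liver (from 1.88), against 2.28 of all models, and 1.88 enriched in lung (from 3.06), against 1.95. It gave 0.471 depleted in heart (from 1.18), against 0.506, and 0 depleted in liver (from 0.235), against 0.294. Under it 22.4 were highest in liver (from 9.70) and 20.7 in kidney (from 32.8). Higher in lung than in heart were 7.76 (from 12.2), in liver than in lung 19.1 (from 11.8), in lung than in liver 9.65 (from 16.9) and in kidney than in liver 9.18 (from 15.1). At 10 reads 27.5 were detected in liver, 44.2 in lung and 40.2 in kidney. Adding 100 bases gave 0 depleted in liver, against 1.03 of all models. A minimum of 20 reads also gave 0 there, against 1.12, and 2.12 depleted in lung (from 3.29), against 0.348. A minimum of 1 RPKM gave 1.41 depleted in liver and 0.235 in kidney (from 0). For this minimum, and for the folds and the models with reads in every library below, shares of all models were not computed. Whether the whole series moved alike there is not known.

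At 10-fold, 2.82 were enriched in heart (from 5.18), 0.941 in liver and 0.706 in lung, 0.471 depleted in heart, 1.88 depleted in lung and 2.12 high in 2 tissues (from 4.71). At 3-fold, 8.24 were enriched in heart, 4.94 in lung and 4.94 in kidney, 2.12 depleted in heart, 1.88 depleted in liver and 8.94 high in 2 tissues. A limit of 200 bases gave 3.14 enriched in heart, 2.52 depleted in heart and 0.629 in liver, with 0.340% of reads in kidney, 0.243% in liver, 0.162% in heart and 0.0937% in lung. A limit of 300 bases gave 0.519 depleted in liver and 2.99 high in 2 tissues, with 1.05% of heart, 0.728% of liver and 0.868% of lung reads. Of the short models with reads in all 4 libraries, 99.1 were detected in liver, 0.948 enriched in liver, 1.90 enriched in lung, 1.90 depleted in heart, 0 depleted in liver, 5.21 depleted in lung and 7.11 high in 2 tissues. Without its top model, lung had 0.317% and kidney 0.761% of reads on short models.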

Other observations

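Only 4 pairs of short models had consecutive numbers on a scaffold. On scaffold16312 the members of the pair had opposite profiles: evm.model.scaffold16312.13, of 249 bases, had 431 RPKM in heart and 1.81 in lung, and evm.model.scaffold16312.14, of 219 bases, had 0.325 in heart and 129 in lung. Their reads were 1509 against 1 in heart and 4 against 250 in lung. On scaffold20585 both members met the rule for heart. evm.model.scaffold20585.1, of 216 bases, had 400 heart reads and at most 4 in any other library, and evm.model.scaffold20585.2, of 234 bases, had 55 and at most 1. In the pair on scaffold41305 the second model stood at 201 RPKM in heart and 344 in lung and the first at 10.5 and 21.8. The pair on scaffold30016 was low, at 17.5 RPKM or less in every library. These pairs were chosen after their values were seen.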
